A study of Mus musculus with 42 samples.

Results

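The comparison described here is a difference of effects in mouse liver mRNA: what enzalutamide added to corticosterone after chronic treatment, minus what it added after acute treatment. The groups were chosen by the treatment and duration labels alone and hold 24 of the 42 libraries of the study. Male C57B6/J mice received corticosterone (CORT, the main glucocorticoid of mice) or corticosterone with enzalutamide (CORT+ENZA), acutely or chronically, 6 mice in each of the 4 groups. All 24 mice therefore received corticosterone, and no genotype differed between groups. Vehicle mice of each arm, 6 and 6, are given only as side values. Ages, doses, routes and the length of treatment were not given in the sources used here, and a chronic group on enzalutamide alone was not analysed here. The study asked how glucocorticoid and androgen signalling interact in the liver, and the present comparison asks which effects of this antiandrogen drug on top of corticosterone depend on duration.

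Corticosterone acts through the glucocorticoid receptor, a nuclear receptor that induces genes of glucose, amino acid and lipid metabolism in hepatocytes and restrains inflammatory genes. Enzalutamide is an antiandrogen drug and is also known as an inducer of drug-metabolising enzymes through the pregnane X receptor (PXR), which shares many target genes with the constitutive androstane receptor (CAR). In male rodents, hepatic expression of many cytochrome P450 and major urinary protein genes differs from that in females and follows androgens and the pattern of growth hormone release.

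The 24 libraries held 16200868 to 19903967 gene counts. Extraction used a Qiagen kit for the acute arm and a Macherey-Nagel kit for the chronic arm, so duration and kit cannot be told apart in a difference of effects, and levels are never compared between arms. The hepatocyte markers of the fixed list were all measured, 14 of 14, and summed to between 67883 and 138332 CPM (counts relative to library size) in the 24 libraries. Chronic CORT+ENZA mouse 18 stood apart: its median correlation with its group was 0.972, against 0.990 to 0.993 for the other 5 mice. Acute CORT+ENZA mouse L36A had the highest mitochondrial share of its group, at 11.5% against 8.06 to 9.25% in the others.

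Enzalutamide changed far more genes on top of chronic than of acute corticosterone. Of 14138 genes tested, 2020 (14.3%) differed between CORT+ENZA and CORT in the chronic arm, 1267 (8.96%) higher and 753 (5.33%) lower. In the acute arm 13 genes (0.092%) differed, all higher, by edgeR's quasi-likelihood test with Benjamini-Hochberg adjustment at 0.05. No gene was called lower in the acute arm by edgeR, where 252 genes were lower at an unadjusted p under 0.05, and the acute calls numbered 27 by DESeq2 and 49 by limma-voom in both directions. All 13 acute genes were also called in the chronic arm, in the same direction.

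A call in one arm and not in the other does not show that the arms differ, so the difference itself was tested. It was called for 191 genes (1.35%), 151 of them (1.07%) with a higher effect in the chronic arm and 40 (0.283%) with a lower one. The other 1831 genes called in the chronic arm had no called difference, and for these a dependence on duration was not shown. Among the 191 genes, 182 had a called effect in the chronic arm but not in the acute arm, 7 had called effects in both arms, and 2, Lsm5 and Aktip, had a called effect in neither. No gene had a called difference with a called effect in the acute arm alone. The chronic effect was the larger in size for 187 of the 191 genes, and the acute effect was within 0.25 (log2) of 0 for 132.

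**Figure D1:**
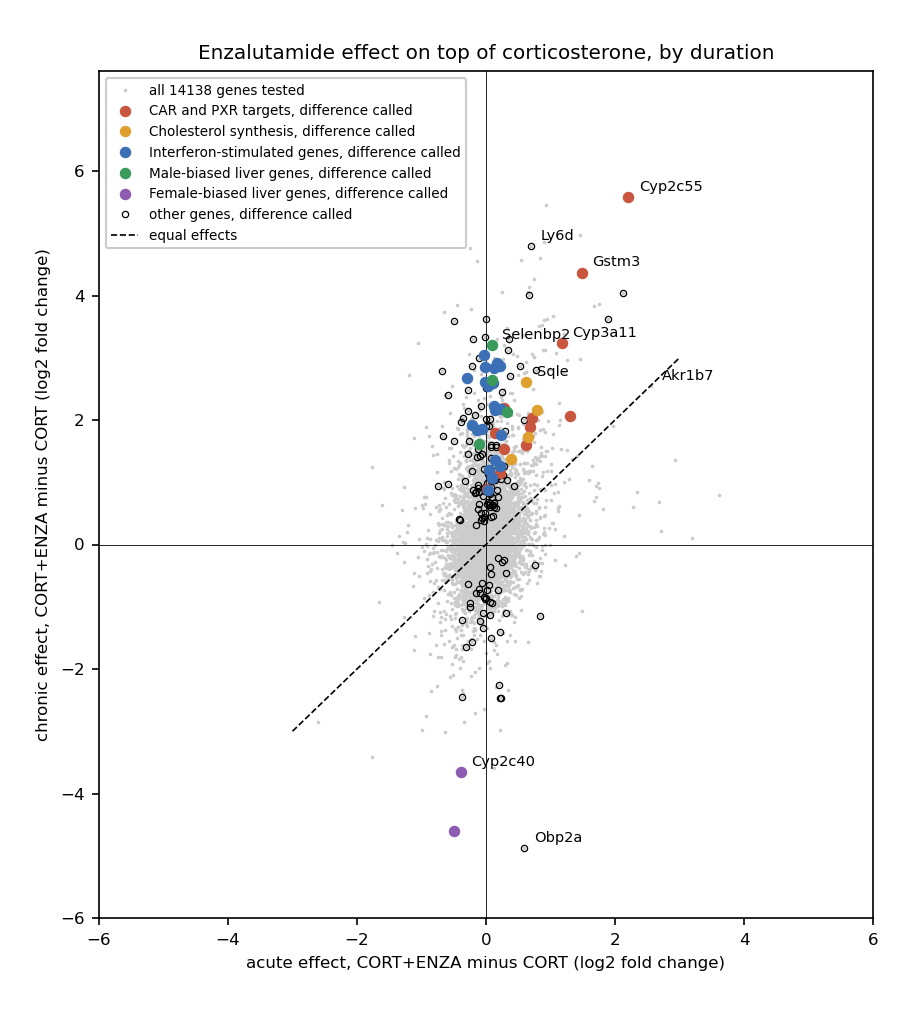
Effect of added enzalutamide (CORT+ENZA minus CORT, log2 fold change) in the acute arm (horizontal axis) and the chronic arm (vertical axis) for the 14138 genes tested, with the 191 genes of a called difference marked, coloured by gene list. Most marked genes lie near 0 on the acute axis, and Cyp2c55, Gstm3 and Cyp3a11 lie to the right of it and above the dashed line of equal effects.

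Targets of CAR and PXR showed an acute effect that was larger after chronic treatment. These nuclear receptors sense foreign compounds and induce P450 enzymes, conjugating enzymes and transporters. Of 35 measured members, 12 had a higher effect in the chronic arm and 0 a lower one, against 1.07% and 0.283% of all genes tested. The median acute effect of the list was 0.43, the median chronic effect 1.23 and the median difference 0.76 (log2), beside a median difference of 0.01 for all genes tested. In the acute arm 6 of the 35 were called higher, and in the chronic arm 29, against 0.092% and 8.96% of all genes tested. Without chronic CORT mouse 27 the count of the difference was 7.

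Cyp2c55, a P450 enzyme inducible by CAR and PXR ligands (chr19:39007019-39042693, build mm10), showed this pattern most strongly among the genes called in both arms. In the acute arm its lowest, median and highest levels were 5.76, 9.42 and 16.4 CPM on CORT and 32.8, 49.9 and 73.1 CPM on CORT+ENZA. In the chronic arm they were 0.778, 0.978 and 2.24 CPM on CORT and 40.7, 56.5 and 88.9 CPM on CORT+ENZA. The groups did not overlap in either arm. The effect was 4.61-fold in the acute arm and 47.8-fold in the chronic arm, a difference of 3.37 ± 0.42 (log2 ± SE, adjusted p = 3.03e-06). Vehicle mice of the chronic arm had a median of 3.33 CPM, above that on chronic CORT.

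Cyp3a11, the main PXR-inducible P450 of mouse liver (chr5:145854426-145879964), ranged over 2677 to 5773 CPM on acute CORT and 7372 to 10695 CPM on acute CORT+ENZA, with medians of 3885 and 8670.1. On chronic CORT it ranged over 722 to 2884 CPM with a median of 1283, and on chronic CORT+ENZA over 12123 to 16787 CPM with a median of 13185. Again the groups did not overlap in either arm. The effect was 2.27-fold and 9.43-fold, a difference of 2.06 ± 0.32 (adjusted p = 0.000118). Chronic vehicle mice ranged over 579 to 1063 CPM, which overlapped chronic CORT. Among the other genes with called effects in both arms and a called difference were the carboxylesterase Ces2a (acute 0.71, chronic 2.03, log2), the P450 enzymes Cyp2c29 (1.30 and 2.06) and Cyp3a59 (1.90 and 3.63), the pseudogene Cyp2c53-ps (2.13 and 4.05) and 4931406C07Rik (0.43 and 0.94). Ces2a and Cyp3a59 shared 22.2% and 28% of their 50-base stretches with other genes, so their counts are uncertain. Cyp2c53-ps overlaps Cyp2c29 on the same strand, so their reads may not be separable, and its call was lost in 9 of 34 alternatives.

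Other members had a chronic effect and no called acute effect. Abcc3, an efflux pump for conjugates, had a median of 238 CPM on acute CORT and 294 on acute CORT+ENZA, with overlapping mice. Its chronic medians were 56.9 CPM on CORT and 268 CPM on CORT+ENZA, with no overlap, and the difference was 1.93 ± 0.22 (adjusted p = 1.66e-07). Gstm3, a glutathione transferase that shares 28.8% of its stretches with other genes, had a difference of 2.88 ± 0.55 (adjusted p = 0.00211) and ranged over 398 to 1967 CPM on chronic CORT+ENZA against 38.5 to 57.5 on chronic CORT. Its acute groups did not overlap either, at 55 to 126 and 181 to 401 CPM, and the acute effect of 1.49 ± 0.39 was not called.

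Cyp2b10, the standard target of CAR, did not pass the test of the difference. It ranged over 15.6 to 44.7 CPM on acute CORT, 43.6 to 219 on acute CORT+ENZA, 24.5 to 97 on chronic CORT and 436 to 1058 on chronic CORT+ENZA. Chronic vehicle mice ranged over 0.453 to 1.48 CPM, below all chronic CORT mice. The difference was 2.12 ± 0.65 (adjusted p = 0.102), with a 95% interval of 0.77 to 3.47 before adjustment. Without acute CORT+ENZA mouse L30A, which had the 219 CPM, the difference was 2.59 and called (adjusted p = 0.0261). Akr1b7, an aldo-keto reductase, had an acute effect of 2.56 ± 0.53 and a chronic effect of 2.55 ± 0.42. The interval of its difference was -1.34 to 1.31. Its highest acute CORT+ENZA value, 7.26 CPM in mouse L30A, stood above 0.687 to 2.51 in the others, and without that mouse the difference was 0.77 (adjusted p = 0.640). The drug efflux pump Abcb1a (17% of its stretches shared) had effects of 1.33 ± 0.29 and 1.38 ± 0.25, with an interval of the difference of -0.70 to 0.80. Myom3 had a larger acute than chronic effect, 2.34 ± 0.41 and 0.84 ± 0.29. Its difference of -1.50 was not called (adjusted p = 0.145), with an interval of -2.49 to -0.52 before adjustment. Acute and chronic effects were 1.65 and 1.26 for 9030619P08Rik and 1.13 and 1.92 for AC138228.2, neither with a called difference.

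Cholesterol synthesis genes, whose products build sterols from acetyl-CoA and which are induced together when cell sterols are low, were measured at 26 of 26 members. Of these, 4 had a higher effect in the chronic arm (Sqle, Msmo1, Cyp51 and Dhcr7) and 0 a lower one, with a median difference of 0.57. In the chronic arm 19 members were called higher, and in the acute arm 1, Fdft1, against 8.96% and 0.092% of all genes tested, and 1.07% for a higher difference. Fdft1, which shares 10.9% of its stretches with other genes and is uncertain, had no called difference (0.72, adjusted p = 0.158), and without mouse 18 it was 0.90 and called (adjusted p = 0.00254). The count of the difference ran from 1 when only the 24 libraries were fitted to 7 without mouse 18, and was 2 with most single mice left out.

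Sqle, squalene epoxidase (chr15:59315077-59331192), ranged over 73.1 to 121 CPM on acute CORT and 89.2 to 197 on acute CORT+ENZA, with overlap. In the chronic arm its lowest, median and highest levels were 15.1, 27.3 and 32.5 CPM on CORT and 56, 170 and 239 CPM on CORT+ENZA, with no overlap. The difference was 1.99 ± 0.38 (adjusted p = 0.00172). Chronic vehicle mice had a median of 82.9 CPM, between these 2 medians. Hmgcs1, the synthase ahead of the rate-limiting step, had effects of 1.15 ± 0.27 and 2.00 ± 0.28 and a difference of 0.85 that was not called (adjusted p = 0.315).

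Interferon-stimulated genes had a chronic effect with almost no acute one. These genes encode antiviral effectors and the factors that amplify their own transcription, and they are switched on by interferon signalling at a promoter element called the interferon-stimulated response element (ISRE). Of 33 measured members, 21 had a higher effect in the chronic arm and 0 a lower one, against 1.07% and 0.283% of all genes tested. The list's median effect was 0.10 in the acute arm and 1.64 in the chronic arm, and the median difference was 1.53. In the chronic arm 30 of the 33 were called higher, against 8.96% of all genes tested, and in the acute arm 0, with 24 of 33 acute values above 0. Without mouse 18, the count was 20 and the median difference was 1.18.

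The ISRE was looked for because the members of this list moved together. The letters GAAANNGAAA were searched on both strands in RefSeq promoter windows of build GRCm38.p6, 250 bases before to 50 after the start. They were found for 16 of the 26 members with a window (61.5%), against 1079 of 27018 genes with a window (3.99%). For genes with a called difference of any kind the share was 26 of 148 (17.6%). This set includes 16 members of the list, 9 of them with a match, so its share is not independent of the list. The list was assembled from known interferon targets, so the share of the list describes the list and not the effect. Parts of the windows of 3 members follow, 5′ to 3′ on the strand of the gene, with the matches in capitals. They lie at chr4:156200847-156200936 (minus strand), chr19:34640745-34640834 (plus strand) and chr12:26456523-26456612 (minus strand).
Isg15: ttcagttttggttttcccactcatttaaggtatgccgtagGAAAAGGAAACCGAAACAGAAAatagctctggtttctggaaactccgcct
Ifit1: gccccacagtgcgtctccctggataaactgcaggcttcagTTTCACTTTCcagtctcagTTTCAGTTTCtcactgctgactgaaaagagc
Rsad2: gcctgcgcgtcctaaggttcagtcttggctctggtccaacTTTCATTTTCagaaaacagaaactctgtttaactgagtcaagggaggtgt
The Isg15 window held 3 overlapping matches, the Ifit1 window 2 and the Rsad2 window 1, and a match describes the letters only.

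Irf7, the transcription factor that amplifies interferon production (chr7:141262706-141266481), had lowest, median and highest levels of 40.5, 46.8 and 56 CPM on acute CORT and 38, 49.2 and 68.9 CPM on acute CORT+ENZA. On chronic CORT these were 9.78, 11.8 and 20.7 CPM, and on chronic CORT+ENZA 62.4, 84.1 and 186 CPM. The acute groups overlapped and the chronic groups did not, and the highest value was that of mouse 18. The difference was 2.72 ± 0.34 (adjusted p = 3.03e-06), and 2.41 without mouse 18. Irf7 overlaps Phrf1 on the other strand, so reads of the pair could be split differently by another counting setting.

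Usp18, the protease that removes ISG15 from proteins and dampens interferon signalling (chr6:121245906-121270917), ranged over 12.2 to 17.5 CPM on acute CORT and 12.3 to 20.7 on acute CORT+ENZA. It ranged over 1.54 to 4.04 CPM on chronic CORT and 13 to 36.9 on chronic CORT+ENZA. The chronic groups did not overlap, and the acute groups did. The acute effect was -0.04 ± 0.20 and the chronic effect 3.05 ± 0.24, a difference of 3.09 (adjusted p = 2.32e-08).

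The 3 genes whose promoters are shown had higher effects in the chronic arm, and so did members whose windows held no match. Among the latter, Irf7, Ifi44 and Xaf1 had differences of 2.72, 2.86 and 1.94. A link between a match and the size of the effect was not tested. Rsad2, the antiviral enzyme viperin, had a median of 2.55 CPM on chronic CORT and 17.5 on chronic CORT+ENZA, beside 5.05 and 6.51 in the acute arm, and a difference of 2.75. Isg15, a ubiquitin-like modifier, had chronic medians of 3.42 and 17.2 CPM, acute medians of 5.33 and 5.6 CPM and a difference of 2.10. Ifit1, which binds foreign RNA, had chronic medians of 2.25 and 20.5 CPM, acute medians of 6.24 and 8.68 CPM and a difference of 2.65. Chronic vehicle medians were 8.64 CPM for Rsad2, 11.2 for Isg15 and 8.55 for Ifit1, in each case above chronic CORT and below chronic CORT+ENZA.

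Interferon-inducible GTPases of the Gbp family were among the largest differences: Gbp10 at 4.08 and Gbp6 at 2.98. Their sequences are shared with other genes over 82.5% and 59.7% of stretches, so the split between family members is uncertain. Gbp3 had a difference of 2.51. The summed level of the 33 members ranged over 815 to 1008 CPM on acute CORT and 833 to 1039 on acute CORT+ENZA. In the chronic arm the sums ranged over 650 to 932 CPM on CORT and 1333 to 2153 on CORT+ENZA, and over 1024 to 1168 on vehicle.

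Markers of other cell types were summed beside these values. Kupffer cell markers, 13 of 13 measured, summed to 139 to 243 CPM on chronic CORT and 201 to 857 on chronic CORT+ENZA, where mouse 18 had 857 and the other 5 mice 201 to 365. The mean ratio was 1.83 (exact permutation test, two-sided, p = 0.0498, 0.273 adjusted over 28 tests). In the acute arm the means were 334 and 337 CPM on CORT+ENZA and CORT. In the chronic arm 6 of the 13 Kupffer markers were called higher, against 8.96% of all genes tested, and all 13 effects were above 0. No Kupffer marker had a called difference, but 12 of 13 differences were above 0, with a median of 0.91 that was 0.48 without mouse 18. Of 11 listed T and NK cell markers 6 passed the filter. In the chronic arm 3 of these 6 were called higher, against 8.96% of all genes tested, and none had a called difference. Their median difference of 1.62 was 0.73 without mouse 18. Their levels were low, summing to 1.16 to 1.87 CPM on chronic CORT. On chronic CORT+ENZA mouse 18 had 6.19 CPM and the other 5 mice 0.967 to 2.33. The mean ratio was 1.67 (exact permutation test, p = 0.325, 0.606 adjusted). Stellate cell and fibroblast markers had 4 of 12 called higher in the chronic arm, against 8.96% of all genes tested, and none with a called difference. Their sum on chronic CORT+ENZA was 629 CPM in mouse 18 and 218 to 380 CPM in the other 5 mice. The median difference of these markers, 0.48, was 0.20 without mouse 18. Of the B cell (8 measured), neutrophil (3), endothelial (13), erythroid (5) and cholangiocyte (6) markers, 0 were called higher in the chronic arm. Among these, 1 cholangiocyte marker was called lower, and none had a called difference. In bulk tissue more cells of a type and more RNA per cell cannot be told apart, and the part of these cells in the interferon values was not tested.

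**Figure D2:**
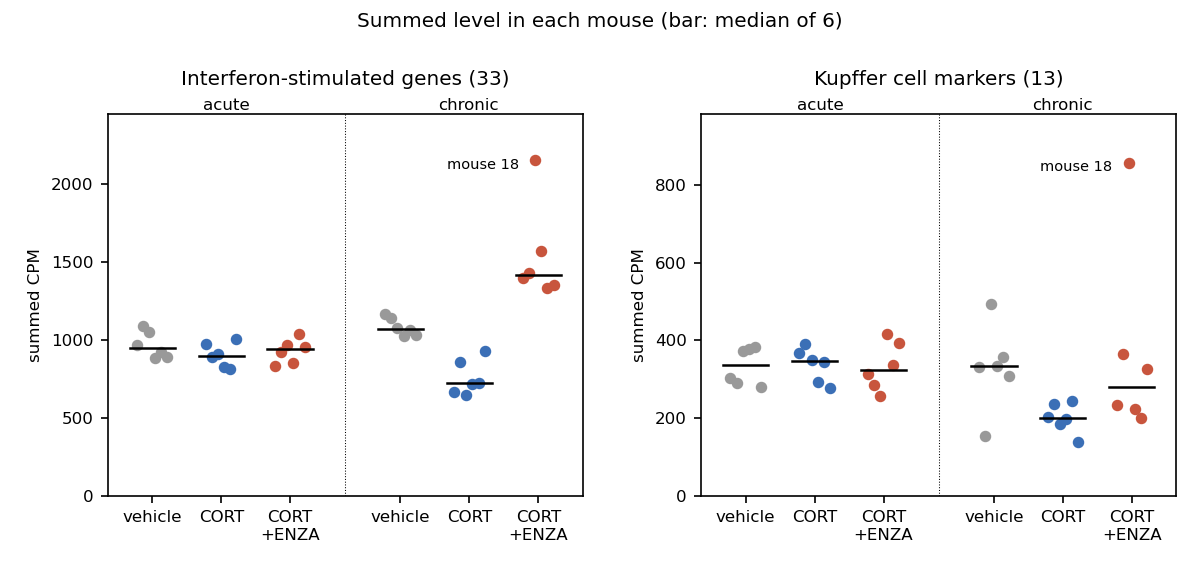
Summed CPM of 33 interferon-stimulated genes (left) and 13 Kupffer cell markers (right) in each mouse, on vehicle, CORT and CORT+ENZA, with the acute arm left and the chronic arm right of the dotted line and a bar at the median of 6 mice. The chronic CORT+ENZA mice all lie above the chronic CORT mice on the left, while on the right the groups overlap and mouse 18 stands alone at 857 CPM.

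Male-biased liver genes were called in both directions in the chronic arm, 14 of 40 higher and 4 lower, against 8.96% and 5.33% of all genes tested. The median effect was 0.46 in the chronic arm and 0.00 in the acute arm. Of the 40 measured members 4 had a higher effect in the chronic arm (Selenbp2, Cyp4a12a, Cyp4a12b and Mup14) and 0 a lower one, against 1.07% and 0.283% of all genes tested, and the median difference was 0.53. The count was 7 without mouse 18 and 8 without chronic CORT mouse 3. Selenbp2, a selenium-binding protein, ranged over 577 to 2202 CPM on acute CORT and 788 to 2230.04 on acute CORT+ENZA, with overlap. On chronic CORT it ranged over 9.82 to 147 CPM and on chronic CORT+ENZA over 224 to 1407, with no overlap, a difference of 3.12 ± 0.65 (adjusted p = 0.00621). The fatty acid hydroxylases Cyp4a12a and Cyp4a12b had differences of 1.73 and 1.81. Near-identical copies make these counts uncertain, with 52%, 48.9% and 49.4% of stretches shared for Selenbp2, Cyp4a12a and Cyp4a12b. Cyp4a12a and Cyp4a12b share theirs with each other, so their calls may not be separate. Sharing was not measured for Mup14.

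Female-biased liver genes had differences on both sides of 0, with 11 of 28 above it. Of the 28 measured members 2, the P450 genes Cyp2c40 and Cyp2c69, had a lower effect in the chronic arm and 0 a higher one. The shares over all genes tested were 0.283% and 1.07%, and the median difference of the list was -0.19. In the chronic arm 5 of the 28 were called higher and 4 lower, against 8.96% and 5.33% of all genes tested. The median chronic effect was 0.10. Cyp2c40 (chr19:39767071-39812814) ranged over 10.1 to 50.4 CPM on acute CORT and 7.88 to 57.8 on acute CORT+ENZA. On chronic CORT it ranged over 59.9 to 224 CPM and on chronic CORT+ENZA over 4.52 to 25.9, with no overlap, while chronic vehicle mice ranged over 1.13 to 5.73. The difference was -3.27 ± 0.70 (adjusted p = 0.00675). Cyp2c69 had a difference of -4.09 ± 0.78, and the 2 genes share 72.1% and 54.8% of their stretches with other genes. Each is the main sharing partner of the other, so these 2 calls may not be separate.

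**Figure D3:**
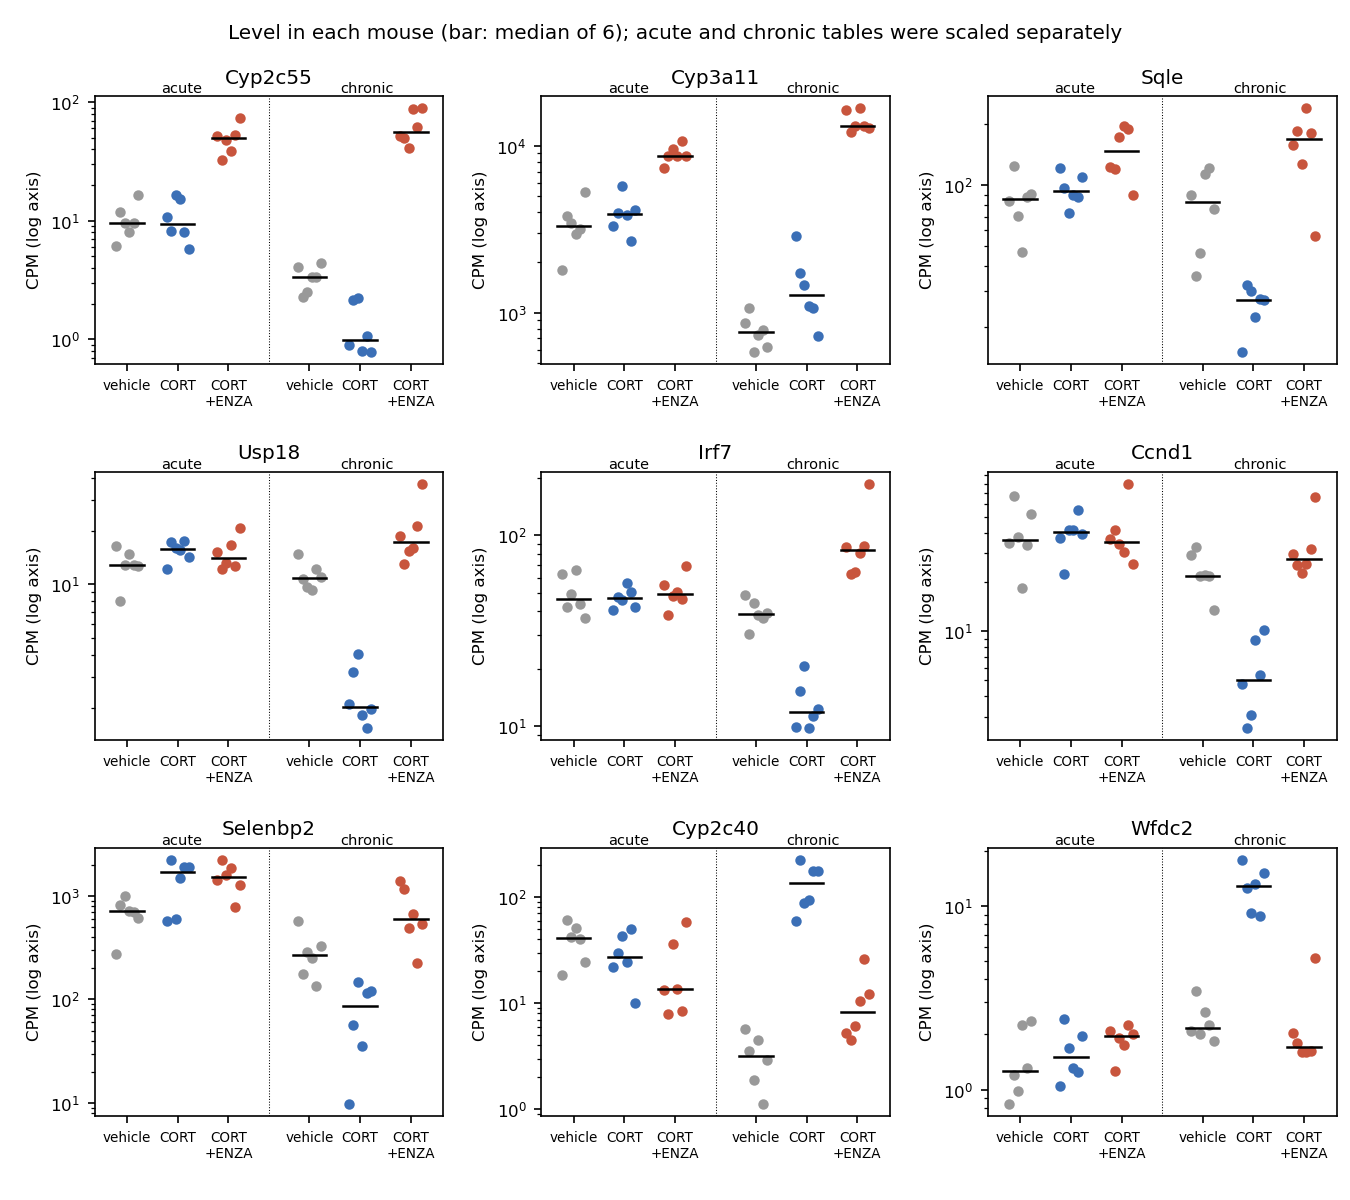
Level in CPM (log axis) of 9 genes in each mouse on vehicle, CORT and CORT+ENZA, acute left and chronic right of the dotted line, with a bar at the median of 6 mice; the arms were scaled separately. Cyp2c55 and Cyp3a11 rise with enzalutamide in both arms, Usp18, Irf7, Ccnd1 and Selenbp2 separate in the chronic arm alone, and within the chronic arm Cyp2c40 and Wfdc2 are highest on CORT.

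Among the genes with a lower effect in the chronic arm, several were high on chronic CORT and low with enzalutamide. Obp2a, an odorant-binding protein, was at 25.8, 36.4 and 35.2 CPM in 3 of the chronic CORT mice and at 1.76 to 2.29 in the other 3, against 0.167 to 1.07 on chronic CORT+ENZA. Its difference was -5.47 ± 0.93 (adjusted p = 0.000428), and 11.7% of its stretches are shared, so its count is uncertain. Wfdc2, a secreted protease inhibitor, ranged over 8.82 to 17.9 CPM on chronic CORT and 1.6 to 5.24 on chronic CORT+ENZA, beside 1.04 to 2.42 and 1.27 to 2.24 in the acute arm, with a difference of -2.69 ± 0.37 (adjusted p = 1.11e-05). Cyp2d40, Rdh16f2 and Sdr9c7 had differences of -1.35, -1.34 and -1.14, the first and second uncertain with 15.3% and 10% of stretches shared.

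Glucocorticoid-induced genes had differences on both sides of 0, with 10 of 33 above it and a median of -0.38. Of 33 measured members 1, the ferritin scavenger receptor Scara5, had a lower effect in the chronic arm and 0 a higher one. The shares over all genes tested were 0.283% and 1.07%. In the chronic arm 5 of the 33 were called lower and 0 higher, against 5.33% and 8.96% of all genes tested. Scara5 ranged over 9.54 to 42.8 CPM on acute CORT and 19.5 to 45.4 on acute CORT+ENZA, and over 12.6 to 38.4 on chronic CORT and 1.8 to 7.49 on chronic CORT+ENZA, a difference of -2.46 ± 0.52 (adjusted p = 0.00675). Fkbp5, a co-chaperone induced by the glucocorticoid receptor, had a called chronic effect of -1.01 ± 0.32, an acute effect of -0.25 ± 0.31 and a difference of -0.76 that was not called (adjusted p = 0.472). Its acute CORT+ENZA range of 130 to 195 CPM and chronic CORT+ENZA range of 81.2 to 152 CPM lay beside 173 to 236 and 165 to 314 on CORT.

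The glucocorticoid receptor gene, Nr3c1, had no called difference, with an interval of the difference of -0.21 to 0.40 (log2). Hsd11b1, which regenerates active glucocorticoid in liver, had a called chronic effect of -0.56 ± 0.10 and a difference of -0.47 (adjusted p = 0.102).

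Single members of other lists passed the test, against 1.07% of all genes tested for a higher difference and 0.283% for a lower one. With a higher difference, Igfbp2 was 1 of 18 growth hormone, STAT5 and IGF axis genes. Cxcl9 was 1 of 18 NF-kappaB and chemokine genes and Lpl 1 of 23 lipid droplet and lipolysis genes. With a lower difference, Apcs was 1 of 27 acute phase proteins and Ttr 1 of 14 hepatocyte markers. Ccnd1, cyclin D1 (chr7:144929931-144939925), ranged over 22.5 to 55 CPM on acute CORT and 25.6 to 79.6 on acute CORT+ENZA, and over 2.56 to 10.1 on chronic CORT and 22.7 to 66.5 on chronic CORT+ENZA. Chronic vehicle mice ranged over 13.5 to 32.6 CPM. The Ccnd1 difference was 2.48 ± 0.46 (adjusted p = 0.00115), the only one called among 23 proliferation genes, against 1.07% of all genes tested. The median difference of these 23 genes, 0.85, was 0.08 without mouse 18. In the chronic arm 11 of them were called higher and 1 lower, against 8.96% and 5.33% of all genes tested. Igfbp2, a binding protein of insulin-like growth factors, had a difference of 1.43 ± 0.29 (adjusted p = 0.00338). The chemokine Cxcl9 had a difference of 3.09 that was 2.00 and no longer called without mouse 18 (adjusted p = 0.0602). Lpl, lipoprotein lipase, had a difference of 2.15 that was 1.52 and not called without that mouse. Apcs, an acute phase protein, had a difference of -1.99 that was -1.01 and not called without acute CORT+ENZA mouse L30A, which had 469 CPM against 52 to 77.1 in the others. Ttr, the transport protein transthyretin, had a difference of -0.76 ± 0.16 (adjusted p = 0.00333), and summed hepatocyte markers on chronic CORT+ENZA were 0.689 of those on chronic CORT (exact permutation p = 0.00216, the smallest these groups can give, 0.0303 adjusted). In the acute arm that ratio was 0.886 (exact permutation p = 0.0584, 0.273 adjusted). The median chronic effect over the 14 markers was -0.18 (log2), with 4 called lower, against 5.33% of all genes tested.

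**Figure D4:**
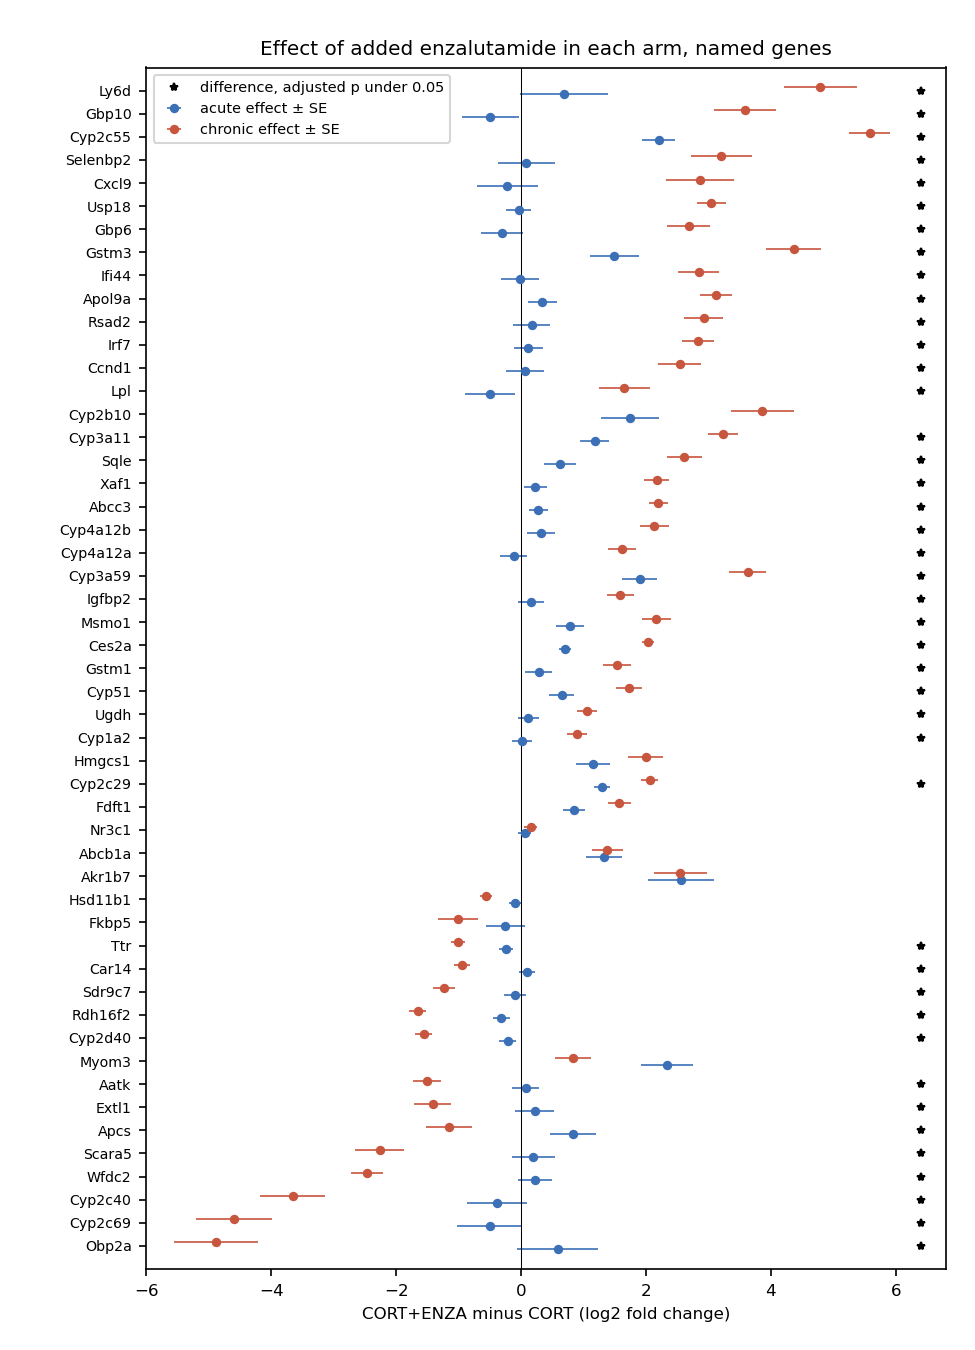
Effect of added enzalutamide (log2 fold change, point ± SE) in the acute (blue) and chronic (red) arm for 51 of the 56 named genes, ordered by the difference, with a star where the difference was called. Akr1b7 and Abcb1a have nearly equal points in both arms, and Usp18, Irf7 and Selenbp2 have acute points near 0 and chronic points near 3.

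Several metabolic lists had no called difference in either direction: fatty acid synthesis (22 members, median -0.29), fatty acid oxidation (29, 0.11), gluconeogenesis and glucose handling (23, -0.22), bile acid synthesis and transport (23, 0.08), the circadian clock (20, -0.11), the unfolded protein response (20, 0.10) and the mitochondrial respiratory chain (23, -0.08). With 1.07% of all genes tested called higher and 0.283% lower, lists of this size may hold none. Over the 34 alternatives the counts reached 1 higher and 2 lower for bile acid genes and 2 higher for fatty acid oxidation. They reached 2 lower for gluconeogenesis, 1 lower for fatty acid synthesis and 1 higher for the unfolded protein response. A difference that was not called does not show equal effects, since the median standard error of a difference was 0.196 (log2). Of the 23 bile acid genes, 7 were called higher and 6 lower in the chronic arm, against 8.96% and 5.33% of all genes tested. Fatty acid oxidation had 6 of 29 called higher there and 0 lower. Fatty acid synthesis had 3 of 22 called lower and gluconeogenesis 3 of 23, each with 0 higher. NRF2 and AhR targets, which respond to oxidative and aromatic compounds, had 3 of 20 members with a higher effect in the chronic arm (Gstm1, Ugdh and Cyp1a2), against 1.07% of all genes tested. This count ran from 0, without chronic CORT mouse 27 or without a low-count filter, to 5 by DESeq2 and limma-voom. The Gstm1 difference of 1.25 was 1.07 and not called without mouse 18 (adjusted p = 0.0549), and 23.1% of its stretches are shared, so it is uncertain.

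**Figure D5:**
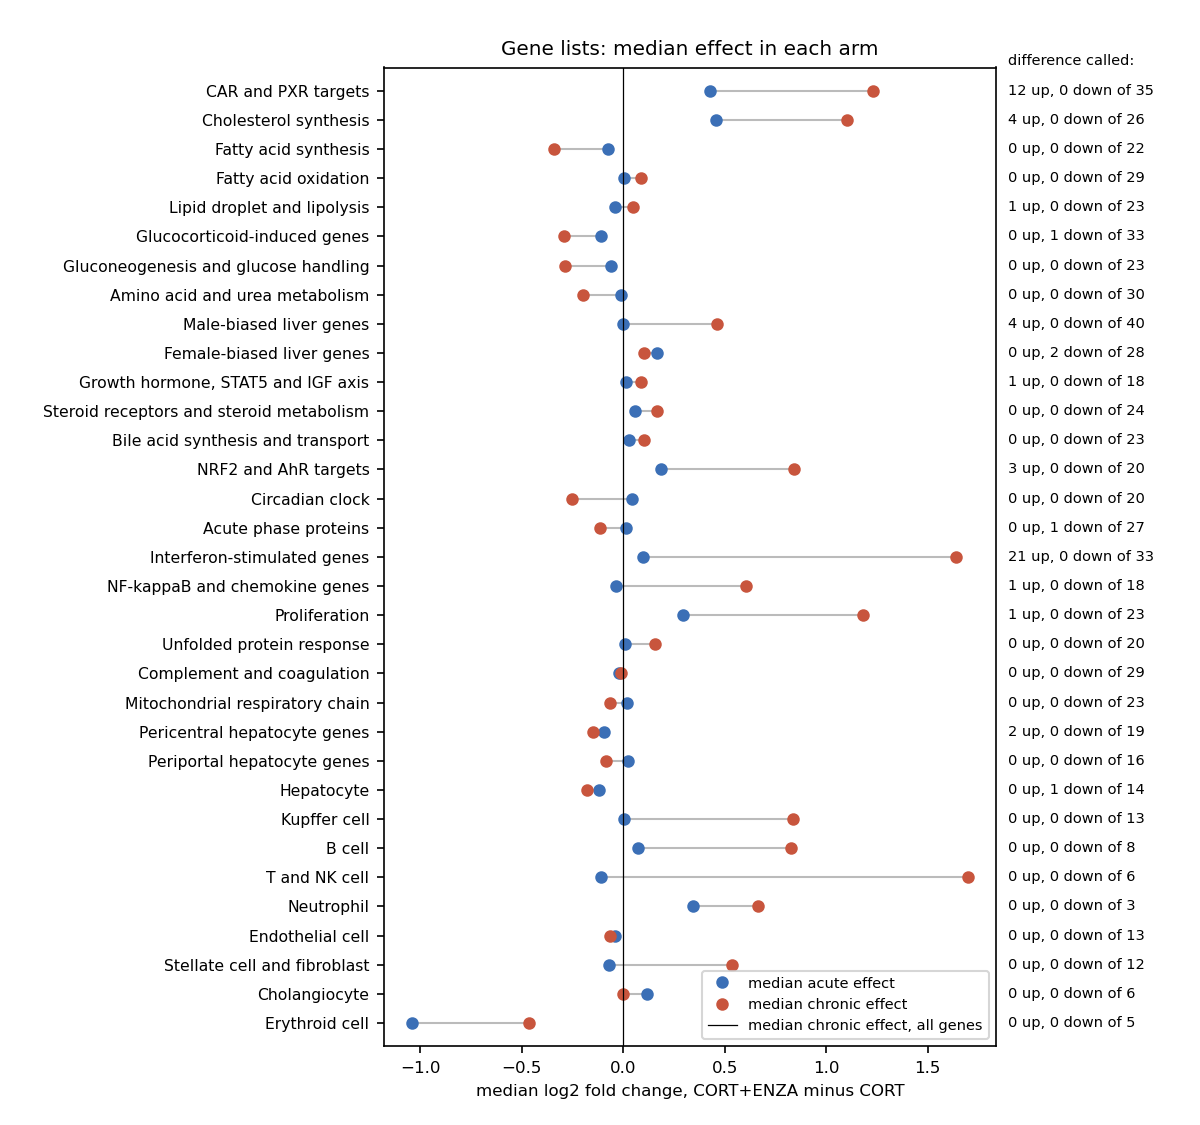
Median effect of added enzalutamide over the measured members of 33 gene lists in the acute (blue) and chronic (red) arm (log2 fold change), with the members whose difference was called counted at the right. Interferon-stimulated genes have the widest gap among the pathway lists, from 0.10 to 1.64, and CAR and PXR targets are above 0 in both arms.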

How the data were processed

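The deposited values are raw counts per gene in 1 table per arm, not normalized, made by the authors with STAR 2.7.3a and HTSeq 0.12.4 on build mm10, with FastQC and MultiQC, per the submitters' processing notes. The annotation release and HTSeq's strand setting were not given in the sources used here; overlapping and antisense genes are therefore uncertain. Of 55573 gene IDs, 55480 matched GENCODE M21; the 5 HTSeq summary lines were left out.

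Genes were kept by filterByExpr (minimum count 10, minimum total 15). TMM scaling was done within each arm, and counts were fitted in edgeR 4.0.16 (R 4.3.3), with a robust quasi-likelihood model of 7 group means over 42 libraries. The contrast was (chronic CORT+ENZA minus CORT) minus (acute CORT+ENZA minus CORT). Benjamini-Hochberg adjustment ran over all genes tested, with calls at 0.05. The SE of a log2 fold change is its size divided by the root of the F statistic; intervals of a difference combine the SEs of both effects, which share no library. Levels are CPM scaled by TMM. Each library is a separate mouse per the labels, no library was repeated, and p-values measure the spread between these mice. Library measures were compared by two-sided exact permutation tests, 28 in all. The method was tested on simulated counts.

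Genes were named if the difference was called, the highest group reached 5 CPM, the symbol was no predicted-gene name and there was no overlap between groups in at least 1 arm. Of these the 12 largest in each direction were taken, with up to 3 per list, genes called in both arms and 10 genes always included; not all of them are reported here. Isg15, Ifit1, Gbp3, Mup14, Dhcr7, Lsm5 and Aktip fall outside this rule and were chosen after their values were seen. A gene sharing at least 10% of its 50-base stretches with other genes is called uncertain. The comparison, the 33 lists and the rule were chosen with earlier results of these data known. Alternatives were DESeq2 1.42.0, limma-voom (limma 3.58.1), other scalings and filters, the 24 libraries alone, sets of acute mouse numbers as a block, and each library left out.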

Additional observations from a re-analysis of the deposited data

Results flagged for a closer look

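The effect of enzalutamide differed between the arms for 191 genes by the test of the difference itself, 151 higher and 40 lower in the chronic arm.

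Single mice stood far from the rest of their group in 38 of 284 groups of values examined (13.4%). The rule gives about 1 in 20 for independent, normally distributed values. CPM values need not be normal, and values of the same mice are not independent. Of the 38, 12 came from chronic CORT+ENZA mouse 18, so an excess over chance was not shown. Chronic CORT+ENZA mouse 18 was the highest of its group for Irf7 (186 CPM), Ccnd1 (66.5), Cxcl9 (49.4), Rsad2 (47.1), Usp18 (36.9), Ifi44 (23.3), Xaf1 (17.6), Gbp6 (11.1) and Wfdc2 (5.24). It was also the highest for summed Kupffer markers (857 CPM) and T and NK cell markers (6.19 CPM), and its median correlation with its group was the lowest, at 0.972. Their part in one another was not tested.

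Acute CORT+ENZA mouse L30A was the highest for Apcs (469 CPM), Ugdh (172), Rdh16f2 (96.9), Ccnd1 (79.6), Akr1b7 (7.26) and summed neutrophil markers (6.08). Mouse L36A of that group was the highest for Gstm1 (3029 CPM), the mitochondrial share (11.5%) and T and NK cell markers (4.96 CPM), and the lowest for Fkbp5 (130 CPM).

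On acute CORT, mouse L8A was the highest for Sdr9c7 (91.4 CPM), Nr3c1 (80.6) and Myom3 (0.788), L14A for Cyp3a59 (81.5) and L32A for Cyp1a2 (1050.3), and L20A was the lowest for Apcs (47.2). On chronic CORT, mouse 1 was the highest for Hsd11b1 (1081 CPM) and the lowest for Cxcl9 (0.788). Mouse 2 was the highest for AC138228.2 (2.10 CPM), mouse 3 for Cyp2c53-ps (1.64), mouse 26 for B cell markers (15.7) and mouse 27 for T and NK cell markers (1.87). Mouse 25 had the lowest total, 16358276 gene counts. On chronic CORT+ENZA, mouse 5 was the highest for B cell markers (38.2 CPM), mouse 16 for Cyp2c53-ps (15.0) and mouse 17 for Cyp2c40 (25.9).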

How the results depend on the processing

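The count of called differences, 191, was 317 by DESeq2, 446 by limma-voom and 126 with no low-count filter, and 142 to 219 with 1 library left out. The acute count, 13, was 27 by DESeq2, 49 by limma-voom, 7 with no filter, 20 without mice L36A and 18, and 6 to 21 with 1 library left out (6 without acute CORT mouse L26A, 7 without acute CORT+ENZA mouse L30A, 21 without chronic CORT+ENZA mouse 18). The chronic count, 2020, was 1567 to 2115 with 1 library left out. The cause was not tested. The share of called differences that were higher was 79.1%, and 71.5% with TMM over both arms together and 65.5% by limma-voom. Fitting only the 24 libraries also gave 191 calls, of which 151 were shared. Same-set acute mice correlated at a mean r of 0.081, ranging from -0.19 to 0.343, so the numbers were not taken to pair them; with the sets as a replicate block the counts were 201, 2106 and 11 for the difference, the chronic and the acute effect. No value of a named gene that was called in the main or the alternative fit changed sign. Values called in neither could change sign, as the Akr1b7 difference did, from -0.01 to 0.77 without mouse L30A. Of the 44 named genes with a called difference, 32 kept the call in all 34 alternatives; Lpl kept it in 10, Cyp51 in 13, Extl1 in 15, Apcs in 17 and Cyp1a2 in 18.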
